A study of Canis lupus familiaris with 22 samples.

Results

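In the dog retina, 100 genes were chosen because their RNA was lower in the macula than in the periphery in each of 4 dogs, while the underlying RPE/choroid showed no regional difference of one direction in all 4. The choice used measured values. Counts were scaled to CPM, the count per 1e6 counts of the library total, and d was the log2 ratio of macular to peripheral CPM within a dog, with 0.5 CPM added to both. A gene qualified when d in retina was -0.2 or lower in all 4 dogs, when d in RPE/choroid was neither at least 0.2 in all 4 nor at most -0.2 in all 4, and when the 8 retina libraries averaged at least 2 CPM. Of 30951 gene identifiers, 406 qualified, and the 100 whose least negative retina d was lowest were taken as members. They are named here by Ensembl identifier: 0 of the 30951 identifiers matched a symbol in the reference table used, so no function, position or sequence of a member is given, and the tissue labels were not checked against marker genes.

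The macula is the region of the retina that serves sharp vision. Dogs have a central area rich in cones and ganglion cells, while the surrounding retina is dominated by rods and has fewer ganglion cells. The retinal pigment epithelium (RPE) is the cell sheet beneath the photoreceptors that renews their pigment and clears their shed outer segments, and the choroid lies behind it and holds the vessels that feed both. A gene with more RNA in the peripheral retina can be one whose cells are commoner there, or one more active in each cell. In bulk tissue, more cells of a type and more RNA per cell cannot be told apart.

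The study measured total RNA by sequencing in 22 libraries from 7 mixed-breed dogs, with no treatment or engineered allele in any group. The first set came from dogs 18-2, 18-6, 18-7 and 18-9. From 1 eye of each, retina and RPE/choroid were taken at the macula and at the periphery, which gave 4 libraries per dog. Dog 18-2 was a male pitbull mixed breed of an estimated 2 to 3 years and dog 18-6 a male mastiff mixed breed of 3 to 5 years, both sampled in the left eye. Dog 18-7 was a female pitbull mixed breed of 3 to 5 years and dog 18-9 a female boxer mixed breed of 2 to 3 years, both sampled in the right eye, so sex and side cannot be told apart. In the second set, dogs 1, 2 and 3 each gave 2 libraries of macular RPE/choroid. The right eye was sampled with the retina still on and the left after the retina had been peeled away, so eye side and sampling cannot be told apart either. Dog 1 was a female labrador/pitbull mixed breed of 3 to 5 years, and dogs 2 and 3 were male pitbull mixed breeds of 2 to 3 and 3 to 4 years.

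Library totals ran from 2690847 to 7845325 counts, and from 4664101 to 6788365 in the 8 retina libraries. The members were moderately to weakly expressed genes. Their mean retina level had a median of 11.7 CPM, with a range of 2.19 to 123.9, against a median of 48.3 CPM for the 14149 identifiers that reached 2 CPM. The median count of a member in a peripheral retina library was 92.5, and the smallest count there was 4. In macular retina the smallest count was 0.

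The regional difference in retina chose the members, so its size is a description and carries no test. Over the members, the median level was 7.55 CPM in macular retina and 17.6 CPM in peripheral retina. Taken separately, the median over members of mean d was -0.99, close to a halving, and mean d ran from -3.54 to -0.55. By mean d, 50 members were at least 2-fold and 8 at least 4-fold higher in the periphery. The median d was alike in the 4 dogs: -0.92 in dog 18-2, -1.03 in dog 18-6, -0.97 in dog 18-7 and -1.05 in dog 18-9. Over all identifiers of at least 2 CPM the same medians were -0.04, 0.00, 0.01 and -0.01. The most negative d of a member fell in dog 18-2 for 25 members, in 18-6 for 30, in 18-7 for 23 and in 18-9 for 22.

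**Figure D1:**
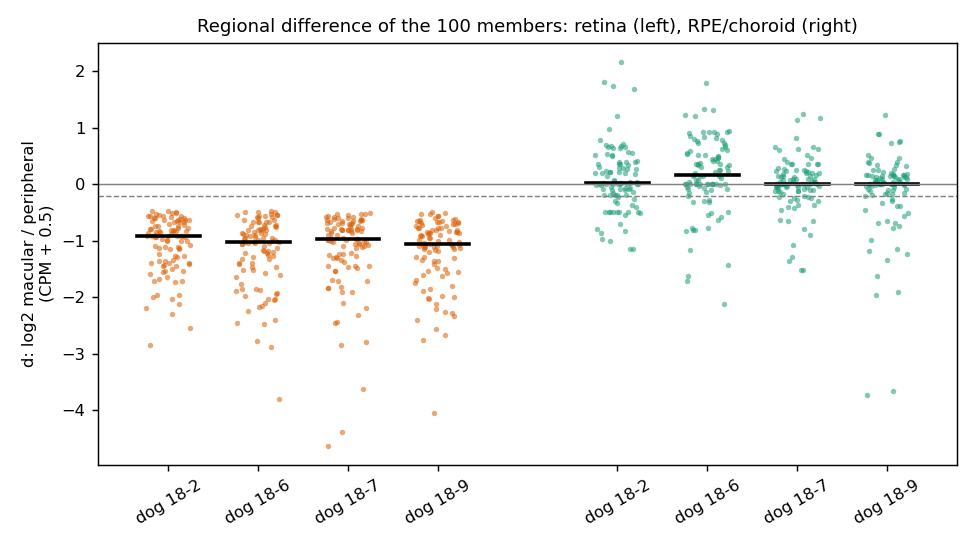
Each point is 1 of the 100 members in 1 dog, and its height is d, the log2 ratio of macular to peripheral CPM with 0.5 CPM added; black bars are medians and the dashed line is the threshold of -0.2. Retina (left) lies below the line by choice of the members, with medians from -1.05 to -0.92, while RPE/choroid (right) scatters on both sides of 0.

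The members are ranked by their least negative d, and ENSCAFG00000011211 came first. It stood at 0.442, 0.206, 2.43 and 0.161 CPM in the macular retina of dogs 18-2, 18-6, 18-7 and 18-9, and at 6.24, 4.72, 60.8 and 10.4 CPM in their peripheral retina. The macular values came from 21 counts in all. In dogs 18-2, 18-6 and 18-9 they lay below the 0.5 CPM added in d, so d there depends on that addition. Every peripheral library lay above every macular one, and dog 18-7 was by far the highest in both regions. Second in that ranking was ENSCAFG00000042068, at 3.68, 0.824, 0.911 and 2.25 CPM in macular retina and at 15.7, 8.58, 7.17 and 17.0 CPM in peripheral retina. Here too the regions did not overlap, and dogs 18-2 and 18-9 were the higher pair in each. At the other end of the list, the last member, ENSCAFG00000010700, had a least negative d of -0.4759, and the next gene, ENSCAFG00000014469, stayed outside with -0.4752. The edge of the list is a matter of rank and not a gap in the data.

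Most members separated the regions even without pairing the dogs. In 71 of the 100, all 4 peripheral libraries lay above all 4 macular ones, against 4.81% of the 14149 identifiers of at least 2 CPM (681). In the edgeR quasi-likelihood fit of the 8 retina libraries with dog as a block, 98 members passed the filter on low counts, and all 98 were called lower in the macula at an adjusted p of 0.05. The background is 6.63% of the 14392 identifiers tested (954). The rule used this contrast, so nothing is read from either count. The 98 tested members had a median fitted log2 difference of -1.05.

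Dogs differed more from each other in these genes than in identifiers at large, a comparison made without a test. In peripheral retina, the highest dog exceeded the lowest by a median of 1.81-fold across members, and by 1.27-fold across all identifiers of at least 2 CPM. The ratio was at least 2 in 43 members and at least 4 in 8. These counts were not made over all identifiers, so nothing is read from them. The members also had lower levels than those identifiers, and the part of level in this difference was not tested. A single dog at least 2-fold above the next was found in 8 members: dog 18-2 in 5, dog 18-7 in 2, dog 18-9 in 1 and dog 18-6 in 0. Among all the identifiers it was found in 1.47% (208).

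A description that the choice does not fix comes from applying the same rule to 3 dogs and reading the 100 genes it gives in the fourth dog. In each case most of the genes were lower in the macula of the dog not used. With dog 18-2 left out, 79 of the 100 genes reached -0.2 or lower in that dog, against 29.7% of all identifiers of at least 2 CPM. For dog 18-6 it was 95 of 100 against 18.6%, for dog 18-7 it was 91 against 14.2%, and for dog 18-9 it was 89 against 16.6%. Dog 18-2 had the smallest count and the highest background.

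The size of the difference shrank somewhat in the unused dog. The median d of the 100 genes was -0.62 in dog 18-2, -0.92 in 18-6, -0.82 in 18-7 and -0.87 in 18-9, while their median in the 3 dogs that chose them ran from -1.09 to -0.99. Genes going the other way in the unused dog, with d of at least 0.2, numbered 5 in 18-2, 1 in 18-6, 2 in 18-7 and 2 in 18-9. The lists overlapped in part: of the 100 members, 60 were chosen again without dog 18-2, 84 without 18-6, 76 without 18-7 and 71 without 18-9. The 4 lists share dogs, so their counts are not independent of each other, and no test was made of them.

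**Figure D2:**
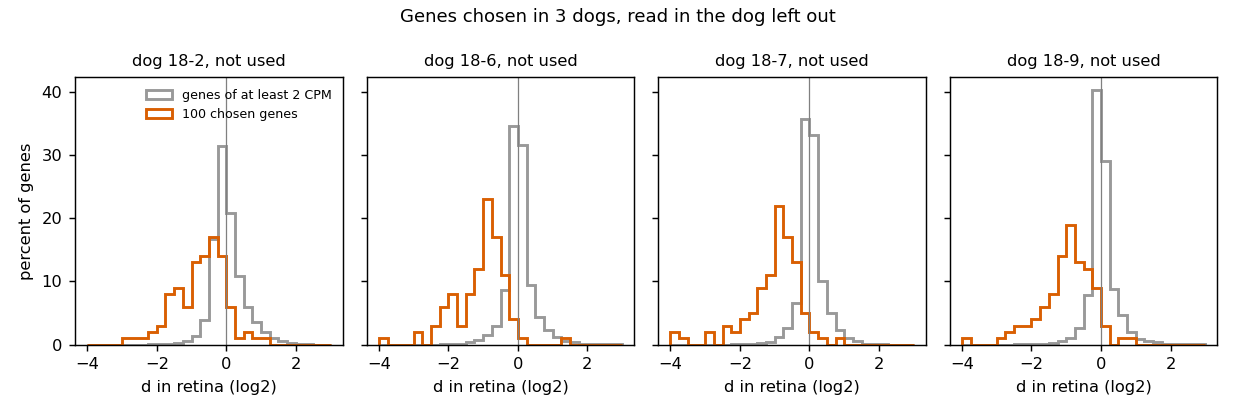
In each panel the 100 genes were chosen in the other 3 dogs, and the orange line gives their distribution of retina d (log2, x axis) in the named dog as percent of genes (y axis); grey is all identifiers of at least 2 CPM, and values beyond -4 and 3 are drawn at the ends. The chosen genes sit to the left of 0 in all 4 panels, with medians of -0.62 in dog 18-2 and -0.92 in dog 18-6 at the extremes.

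The members differed sharply in which tissue they belonged to. The difference between retina and RPE/choroid, averaged over the regions, was tested with edgeR's quasi-likelihood test in the 16 libraries of the first set, with dog as a block. Each dog gave a macular and a peripheral library per tissue. The fit counted them as separate replicates, with no term for a dog's own tissue difference. Its p-values can therefore be too small, for members and background alike. The rule did not use the difference itself, but it set a minimum of 2 CPM in retina and a lower level in the macula, and those retina values enter the average. Of 99 members tested, 42 had more RNA in retina and 50 more in RPE/choroid at an adjusted p of 0.05. The background is 40.7% and 38.7% of 15577 identifiers, so these counts alone do not set retina apart. The sizes were larger than the background: the median absolute log2 difference was 2.55 in the members and 0.67 in all identifiers tested. Only 20 members (20.2%) were within 2-fold between the tissues, against 60.7% of all. Large tissue differences were not particular to the members. The 100 genes raised in macular retina only, by the same rule with signs turned, had 19% within 2-fold and a median of 3.28. The members' median retina level was 11.7 CPM, against 48.3 CPM for identifiers of at least 2 CPM. The part of level in these differences was not tested.

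Averaged over the regions, the members at 4-fold or more divided into groups of nearly equal number. There were 30 members called at least 4-fold higher in retina, 30.3% of those tested against a background of 10.9%, and 29 called at least 4-fold higher in RPE/choroid, 29.3% against 13.1%. Among identifiers of at least 2 CPM in retina, from which the members were drawn, these backgrounds were 11.5% and 7.93%. Of the other members, 12 leaned to retina and 21 to RPE/choroid by less than 4-fold, 7 were not called and 1 was not tested. At 16-fold or more there were 23 retina-high and 6 RPE/choroid-high members, and the share of all identifiers was not counted. The rule set a minimum level in retina and none in RPE/choroid. The room for large differences was therefore unequal, and nothing is read from these counts. By their levels, and not by these counts, the members held both genes that were scarce in RPE/choroid and genes far more abundant there than in retina.

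The split depended on which region was set against which, since the members are by choice lower in macular retina. In the macular libraries alone, 24 of 89 members tested were higher in retina and 53 in RPE/choroid by edgeR, against 31.4% and 31.6% of 14997 identifiers. In the peripheral libraries alone it was 42 and 44 of 98, against 32.8% and 33.1% of 14729. The 4-fold groups were uneven within each region and leaned opposite ways. In the macula, 21 members leaned to retina and 35 to RPE/choroid by 4-fold or more, with backgrounds of 10.9% and 12.1%. In the periphery there were 34 and 20, with backgrounds of 9.76% and 11.9%. The near-equal groups of 30 and 29 thus hold for the average over regions, and turn to a majority for RPE/choroid in the macula and for retina in the periphery. The strength of the regional difference did not track the tissue closely: across the 99 members, mean d and the log2 tissue difference had a Pearson r of -0.21 and a Spearman rho of -0.19. This is a description over genes that share the same libraries.

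**Figure D3:**
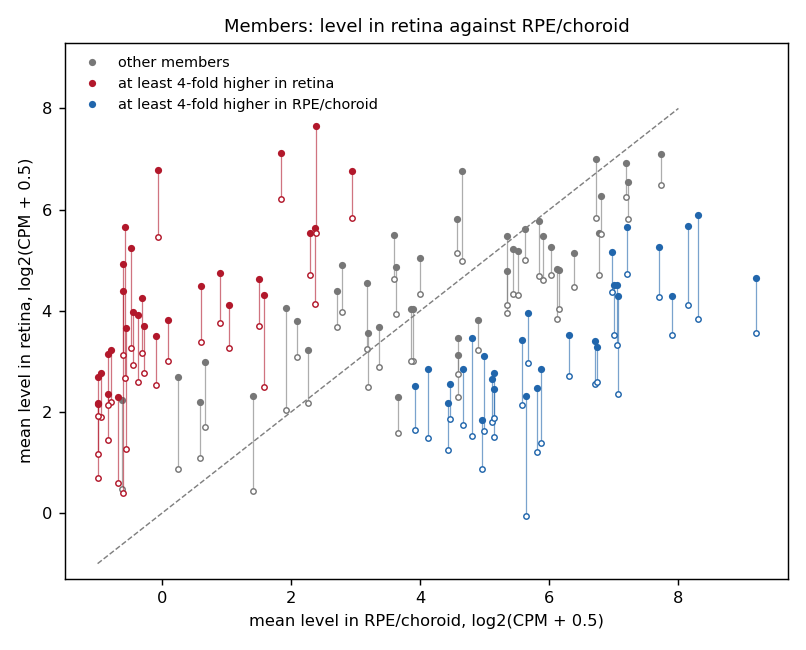
Each vertical pair is 1 member, with its mean log2(CPM + 0.5) over 4 dogs in peripheral retina (filled) and macular retina (open) on the y axis, and its mean over the 8 RPE/choroid libraries on the x axis; the dashed line marks equal levels. The 30 retina-high members (red) lie mostly above the line and the 29 RPE/choroid-high members (blue) below it, at varying distance. The 41 others (grey) lie mostly nearer to it.

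The retina-high members included several with almost no RNA in RPE/choroid. ENSCAFG00000046642 stood at 13.8, 3.50, 13.4 and 5.95 CPM in macular retina and at 46.7, 21.4, 51.1 and 30.8 CPM in peripheral retina, in the order of dogs 18-2, 18-6, 18-7 and 18-9. The 4 macular RPE/choroid libraries held no count of it and the 4 peripheral ones 9 counts together. Its log2 tissue difference was 7.60 ± 0.35 (SE), with an adjusted p of 2.06e-08 in edgeR's quasi-likelihood test. In the fits of each region alone, the same test gave an adjusted p of 0.00439 in the macula and 7.84e-06 in the periphery. All 8 retina libraries were above all 8 RPE/choroid libraries, and its peripheral levels were above its macular ones without overlap.

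ENSCAFG00000046990 had no count in any RPE/choroid library of the first or second set. Macular retina held 3.83, 6.59, 0.759 and 1.93 CPM and peripheral retina 7.67, 9.86, 2.12 and 4.30 CPM, so its regions overlapped between dogs while each dog was higher in its own periphery. Pooled over the 8 retina libraries it was at least 66.2-fold higher than a level of 3 counts in the 8 pooled RPE/choroid libraries of the first set (0.0654 CPM). There were 3 members with no count in the 14 RPE/choroid libraries of both sets.

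The first 2 members by least negative d were both retina-high. The log2 tissue difference was 4.67 ± 0.60 (SE) for ENSCAFG00000011211 and 4.75 ± 0.47 (SE) for ENSCAFG00000042068.

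Summed over the 30 retina-high members, macular retina held 526.0, 357.5, 380.6 and 331.1 CPM and peripheral retina 1091.6, 968.9, 1191.4 and 927.2 CPM in dogs 18-2, 18-6, 18-7 and 18-9. A list of other genes high in retina went the other way. The 200 genes with the largest called retina excess that are no members, a list taken from these same libraries, summed to 11921, 11062, 11844 and 11289 CPM in macular retina and to 8970, 9807, 10152 and 9709 CPM in peripheral retina. The peripheral rise of the retina-high members was thus not shared by the sum of this list, which was lower in the periphery in all 4 dogs. Of all 1629 retina-high identifiers of at least 2 CPM, 97 (5.95%) were lower and 458 (28.1%) higher in the macula in all 4 dogs. The rest, a majority, met neither.

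Among the RPE/choroid-high members, ENSCAFG00000002069 had the lowest log2 tissue difference. Macular retina held 7.51, 13.2, 14.9 and 9.65 CPM of it and peripheral retina 12.7, 19.5, 24.6 and 41.0 CPM, for dogs 18-2, 18-6, 18-7 and 18-9. Macular RPE/choroid held 618, 674, 523 and 533 CPM and peripheral RPE/choroid 644, 682, 491 and 522 CPM. RPE/choroid libraries were thus far above all retina libraries and alike in the 2 regions, and dog 18-9 had the largest step in retina. Its log2 tissue difference was -5.23 ± 0.22 (SE), with an adjusted p of 2.88e-10 in edgeR's quasi-likelihood test. With each region fitted alone, the same test gave an adjusted p of 2.84e-05 in the macula and 1.38e-05 in the periphery.

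ENSCAFG00000024944 followed. It stood at 0.442, 1.24, 0.152 and 0 CPM in macular retina, from 10 counts in all, and at 2.32, 6.65, 7.49 and 1.49 CPM in peripheral retina. Macular RPE/choroid averaged 55.5 ± 24.9 CPM (SD, n = 4) and peripheral RPE/choroid 43.4 ± 25.1 CPM (SD, n = 4). Its regions did not overlap in retina and overlapped broadly in RPE/choroid. The log2 tissue difference was -5.13 ± 0.44 (SE), with an adjusted p of 2.44e-07 by edgeR. With each region fitted alone, the adjusted p by edgeR was 0.000263 in the macula and 0.00167 in the periphery.

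**Figure D4:**
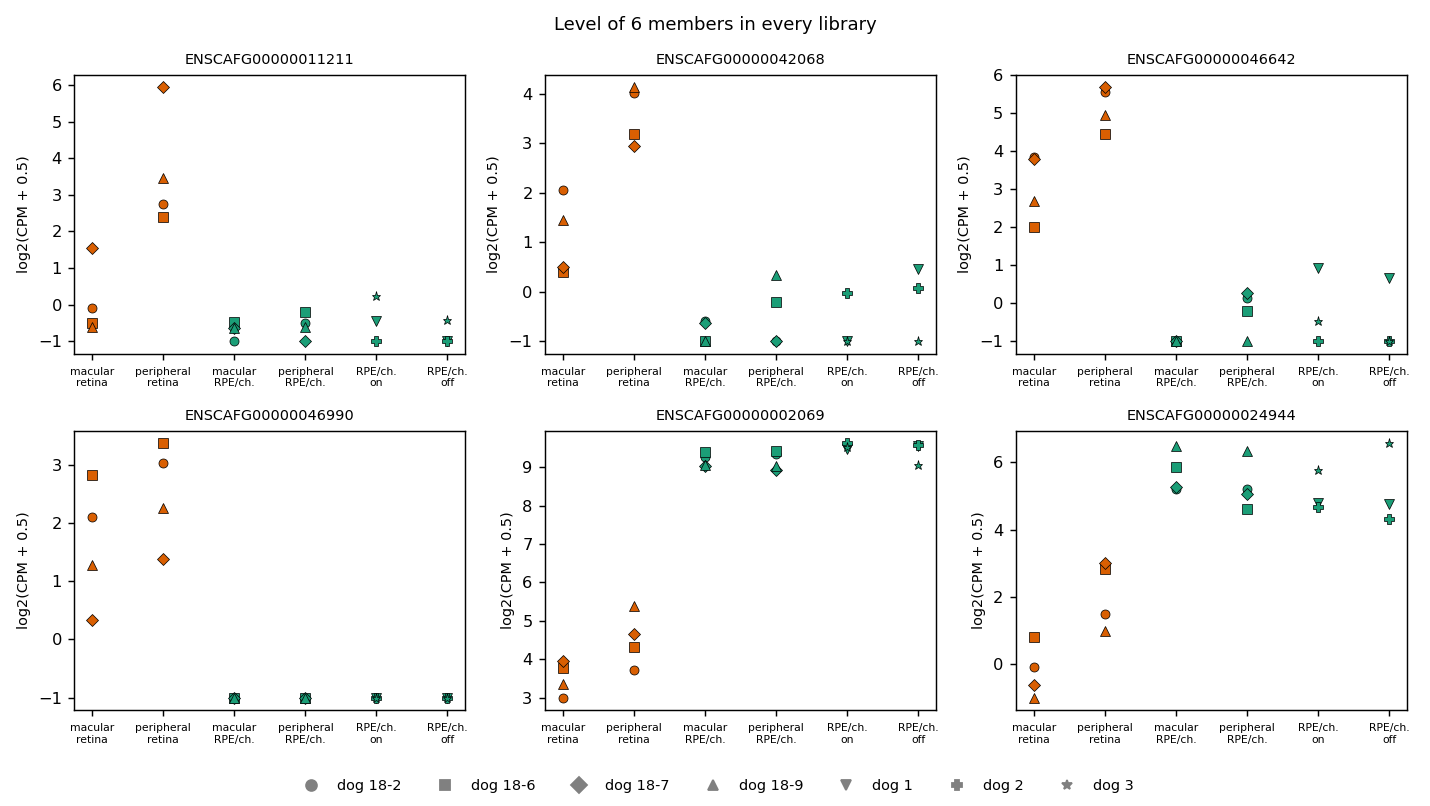
Level of 6 members in all 22 libraries, as log2(CPM + 0.5) on the y axis, by group on the x axis, with retina in orange, RPE/choroid in green, marker shapes for dogs and "on" and "off" for the second set; a library with no count sits at -1. ENSCAFG00000046990 lies at -1 in every RPE/choroid library, and ENSCAFG00000002069 reaches its highest levels there.

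The RPE/choroid-high members were set beside 200 other genes of RPE/choroid, those with the largest called excess there that are no members, again taken from these libraries. Summed over the 29 members, macular retina held 240.9, 175.1, 202.8 and 194.3 CPM and peripheral retina 470.4, 425.8, 525.0 and 493.6 CPM in dogs 18-2, 18-6, 18-7 and 18-9. The 200 other genes summed to 61.4, 107.9, 56.3 and 73.7 CPM in macular retina and to 66.5, 74.4, 59.3 and 208.1 CPM in peripheral retina.

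The log2 ratio of macula to periphery was -0.97, -1.28, -1.37 and -1.35 for the members in the 4 dogs, and -0.11, 0.54, -0.07 and -1.50 for the other genes. The sign of the member ratios was fixed by the choice of members. The other list was clearly lower in the macula only in dog 18-9, and higher there in dog 18-6. That list was near the floor in retina, where 74 to 113 of its 200 genes had no count in a library. Its peripheral retina level was a median of 0.846% of the peripheral RPE/choroid level, against 18.4% for the members. The lists are therefore unlike in level. The part of RPE/choroid RNA in the members' retina values was not tested.

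The retina levels of the RPE/choroid-high members were also set against their RPE/choroid levels. The rule asked for at least 2 CPM in retina and less in the macula than in the periphery. The percentages partly follow from that choice, also beside other genes, and are a description. The members' peripheral retina level was a median of 18.4% of their peripheral RPE/choroid level, from 4.18% to 44.3%. Their macular retina level was a median of 8.12% of the macular RPE/choroid level, from 0.824% to 17.8%. For all 1121 RPE/choroid-high identifiers of at least 2 CPM in retina the medians were 13.4% and 13.0%. Among those, 118 (10.5%) were lower and 157 (14.0%) higher in the macular retina in all 4 dogs.

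**Figure D5:**
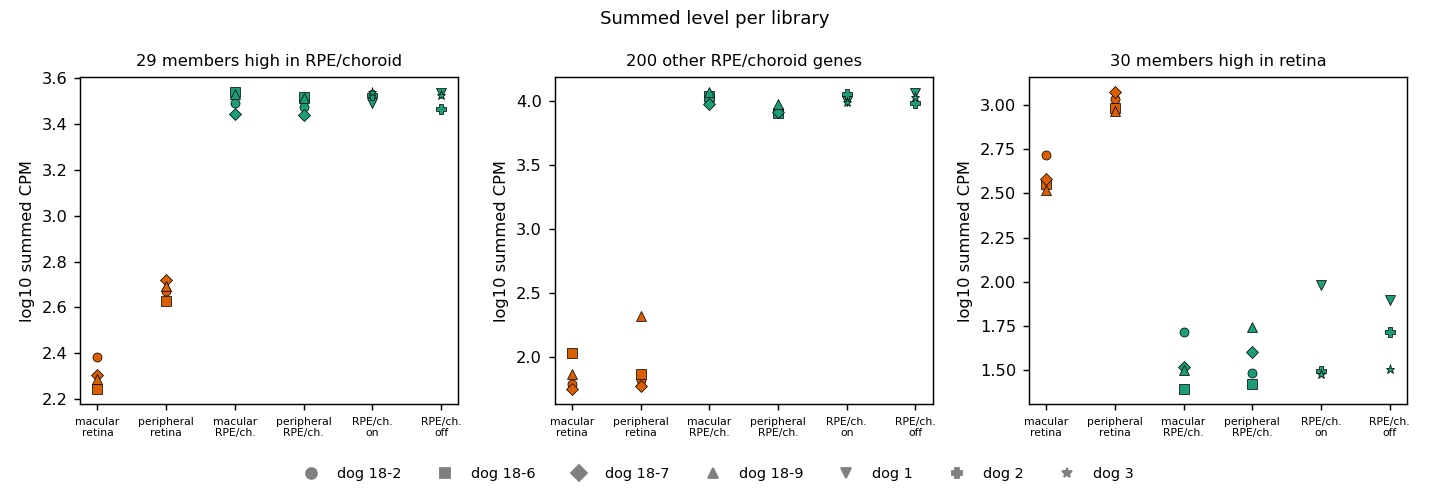
Summed CPM per library on a log10 scale (y axis) by group (x axis) for the 29 RPE/choroid-high members, 200 other RPE/choroid genes and the 30 retina-high members; colours are tissues, shapes are dogs, and "on" and "off" are the second set. Both member groups are higher in all 4 peripheral retina libraries than in any macular one, while the other RPE/choroid genes overlap between the regions apart from dog 18-9 at 208.1 CPM.

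Within RPE/choroid the rule asked that members not move one way in all 4 dogs, so their small differences there are again a description. Mean d had a median of 0.02, from -1.31 to 0.93. The medians by dog were 0.02, 0.16, 0.01 and 0.01, and 64 members had d of both signs. Of 73 members tested in the edgeR fit of the 8 RPE/choroid libraries, 1 was called higher in the macula and 0 lower, against 13.4% of 14352 identifiers called in either direction. At an unadjusted p under 0.05 there were 15, against 36.5% of all identifiers, and DESeq2 called 2 higher and 2 lower, against 17.2% in either direction. Fewer members than identifiers at large passed here, and the rule used this contrast. The member called was ENSCAFG00000009553, with a log2 difference of 0.30 ± 0.07 (SE) and an adjusted p of 0.0432 by edgeR. Leaving out dog 18-2, 18-6 or 18-9 ended the call for any member. Identifiers called were then 63, 267 and 192 higher and 11, 92 and 47 lower, of 14554, 14492 and 14193 tested. Leaving out dog 18-7 gave 5 members higher and 2 lower, against 18.9% of all identifiers.

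At the ends of the range stood members of low level in RPE/choroid. ENSCAFG00000018002 had the lowest mean d there. It stood at 0, 0, 0 and 0.284 CPM in macular RPE/choroid and at 0.408, 0, 0.287 and 9.90 CPM in peripheral RPE/choroid, so the value rests on 1 library, that of dog 18-9. Its retina levels did not overlap between regions, with 17.7, 9.89, 11.8 and 12.9 CPM for macular retina and 27.6, 21.0, 28.7 and 28.3 CPM for peripheral retina.

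ENSCAFG00000000722 had the highest mean d in RPE/choroid, opposite to its direction in retina. It stood at 8.68, 6.35, 3.18 and 6.81 CPM in macular RPE/choroid and at 2.24, 1.49, 3.16 and 5.94 CPM in peripheral RPE/choroid. The regions differed clearly in dogs 18-2 and 18-6 and hardly in dogs 18-7 and 18-9, and the edgeR adjusted p was 0.193. In retina it was among the more abundant members, with 83.4, 33.2, 28.7 and 39.2 CPM for macular retina and 219, 177, 202 and 209 CPM for peripheral retina.

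The second set asked whether leaving the retina on or peeling it off changed the RNA of the macular RPE/choroid, in dogs that had no part in choosing the members. Of 70 members tested with edgeR's quasi-likelihood test with dog as a block, 0 were called in either direction, against a background of 0% of 14076 identifiers. At an unadjusted p under 0.05 there was 1 member, against 0.597% of all (84), and DESeq2 also called 0, with 1 at an unadjusted p under 0.05 (0.44% of all). The median log2 difference of retina on minus off was -0.08, positive in 28 members and negative in 42. That median depended on the dogs, at 0.01 without dog 1 (36 positive, 32 negative), -0.25 without dog 2 and -0.01 without dog 3, so the members had no stable direction. Without dog 2, edgeR called 80 identifiers higher and 3 lower with the retina on (0.58% together), 0 of them members. In that fit 14 of 73 members had an unadjusted p under 0.05, against 12.7% of all identifiers.

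The member with the smallest p was ENSCAFG00000016961, at 6.33, 3.38 and 9.61 CPM with the retina on and at 12.4, 6.12 and 28.4 CPM with the retina off in dogs 1, 2 and 3. It was lower with the retina on in each dog, while the groups overlapped. The log2 difference was -1.14 ± 0.33 (SE), with an unadjusted p of 0.0144 and an adjusted p of 0.99987 by edgeR.

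The retina-high members were mostly too low in RPE/choroid for this comparison, and only 4 of 30 were tested. Their summed level with the retina on was 95.9, 30.9 and 29.8 CPM in dogs 1, 2 and 3, and with the retina off 78.8, 51.8 and 32.0 CPM. The list of 200 other retina genes gave 435.6, 22.7 and 35.9 CPM with the retina on and 87.7, 79.1 and 23.7 CPM with it off, so dog 1 stood apart with the retina on. The RPE/choroid-high members summed to 3104, 3370 and 3471 CPM with the retina on and to 3442, 2930 and 3380 CPM with it off, without a shared direction.

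The split between tissues was compared with neighbouring lists. Of the 306 identifiers that met the rule at ranks beyond 100, 18.0% were retina-high and 18.0% RPE/choroid-high, and 40.2% lay within 2-fold between tissues. Averaged over regions, the tissues had equal shares there too, with smaller differences. The counterpart list, the 100 genes raised in macular retina only, chosen by the same rule with the signs turned, held 55 retina-high and 18 RPE/choroid-high genes. The difference between the counterpart's counts and the members' 30 and 29 was not tested. In the lists chosen without 1 dog, retina-high genes numbered 38, 31, 32 and 31 and RPE/choroid-high genes 25, 32, 27 and 28 without dogs 18-2, 18-6, 18-7 and 18-9.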

How the data were processed

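Total RNA was sequenced from directional Illumina libraries, per the labels' protocols. The deposited files hold raw read counts per Ensembl gene identifier, 1 file per library, which were used unchanged. Tools named in the submitters' processing notes are featureCounts 2.0.0, HISAT2 2.1.0, SAMtools, Trimmomatic 0.39 and FastQC 0.11.8. How duplicates and strand were treated, and the build and annotation, is not given in the sources used here, so reads of overlapping or antisense genes could not be told apart.

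The members and lists were chosen with earlier results of these data known. CPM used the total of each file. Fits used edgeR 4.0.16 in R 4.3.3 (filterByExpr, TMM, glmQLFit and glmQLFTest, with Benjamini-Hochberg adjustment over all identifiers tested at 0.05), with dog as a block, and were tested on simulated data. The simulated counts had no dog effect, the same noise setting for all genes, and changed genes only above a minimum level. They therefore do not cover the pairing of dogs or members of low level. The SE given with a log2 difference is its absolute value divided by the square root of the test's F value. It is approximate, above all for members with few or no counts in a tissue. DESeq2 1.42.0 was an alternative. The dogs pair the libraries by label. Libraries of 1 dog deviated together in retina (r from 0.44 to 0.59) and RPE/choroid (0.44 to 0.61), and in the second set with r of 0.65, -0.07 and 0.52 in dogs 1, 2 and 3. No pair of replicate libraries agreed within sampling noise.

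Members were named by a rule without symbols: the 2 with the lowest least negative retina d, the ends of mean d in RPE/choroid, the 2 largest and 2 smallest called tissue differences, the smallest p for retina on against off, and the genes on either side of the list's edge. ENSCAFG00000009553 was named after its value was seen, as the only member called by region in RPE/choroid. The 200-gene lists were the largest called tissue differences outside the members.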

Additional observations from a re-analysis of the deposited data

Results flagged for a closer look

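The members named above and the summed lists gave 57 groups of 4 dogs. In 6 of them 1 dog stood far from the others relative to the group's range. The cut-off would flag about 1 in 20 groups of independent, normally distributed values. These groups share dogs, some hold libraries with no count, and some members were named for extreme values. That rate therefore does not apply to them. ENSCAFG00000011211 in dog 18-7 reached 2.43 CPM in macular retina, where the others had 0.161 to 0.442, and 60.8 CPM in peripheral retina, where the others had 4.72 to 10.4. ENSCAFG00000018002 was at 21.0 CPM in the peripheral retina of dog 18-6, with the others at 27.6 to 28.7. The same gene in dog 18-9 was at 0.284 CPM in macular RPE/choroid, with no count in the others, and at 9.90 CPM in peripheral RPE/choroid, with the others at 0 to 0.408. In that peripheral library the 200 other retina genes summed to 40.8 CPM, within the 31.4 to 58.6 of the 4 dogs. That list was itself lower in peripheral than in macular retina. The part of retina RNA in the 9.90 CPM was not tested. The 200 other RPE/choroid genes summed to 208.1 CPM in the peripheral retina of dog 18-9, with the others at 59.3 to 74.4.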

How the results depend on the processing

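Without the replicate block, 63 members were called lower in macular retina, where the fit with dogs paired called 98, and DESeq2 called 78. Of all 14392 identifiers tested, 262, 954 and 403 were called lower in those fits. The rule used this contrast. By region in RPE/choroid, members called higher in the macula numbered 2 without the low-count filter and 2 by DESeq2. There were 0 without the replicate block and 0 to 5 with 1 dog left out. Among all identifiers the same settings gave 1225 of 21863, 1144 of 14352, 293 of 14352, and 63 to 1287. Members called lower numbered 1 without the filter, 2 by DESeq2 and 0 to 2 with 1 dog left out. Among all identifiers these gave 992, 1319, and 11 to 1396. In the macular libraries alone, 24 of 89 members tested were higher in retina, against 31.4% of identifiers. Of the 100 members, 59 remained with a minimum of 10 CPM and 60 to 84 with 1 dog left out. The causes were not tested. The median log2 difference of retina on minus off changed sign, from -0.08 to 0.01 without dog 1. The 4-fold groups of 30 retina-high and 29 RPE/choroid-high members became 21 and 35 in the macular libraries and 34 and 20 in the peripheral ones. The backgrounds were 10.9% and 12.1% in the macula and 9.76% and 11.9% in the periphery. Without the replicate block, 40 members were higher in retina and 49 in RPE/choroid, against 42 and 50 with it. Of all 15577 identifiers tested, 6024 and 5762 were called without the block, and 6337 and 6023 with it. The smallest members had few counts, which limits their values in single dogs.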
